A study of Salmo salar with 37 samples.

Results

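Genes of the red blood cell program other than globins were followed in the testis of Atlantic salmon males receiving different amounts of feed. There were 3 of them, namely the probe for erythroid-specific 5-aminolevulinate synthase (7_2_5_2), the probe described as transferrin receptor protein 1 (CUST_41028_PI417904088) and the probe described as 55 kDa erythrocyte membrane protein (CUST_26701_PI417904088), out of 43689 probes on the array and 40684 probes tested. Members were chosen by their descriptions in the study's lists of regulated genes. The synthase stands in the list of restricted against normal ration, so its ration difference is given as a description without a test. The receptor and the 55 kDa protein stand in the list of maturing against immature males, and their ration difference was tested. The study's ration list, made from these same males, does not hold them. A test that they do not pass is therefore no independent result. Each of the 37 males was measured on a one-color oligonucleotide array of its own, from testis RNA, and each value is the log2 of the spot intensity after quantile normalization between arrays.

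The 16 normal ration (NR) males were fed to appetite every day and the 21 restricted ration (RR) males received the same meals on fewer days of the week. All were males kept in seawater, in their second year when the rations began, that had no germ cells beyond type A spermatogonia, and both groups mixed immature and maturing individuals, which the labels used here do not tell apart. Each ration was kept in a sea cage of its own, so that cage and ration cannot be told apart. The whole piece of testis was extracted, with the blood it held, so that fewer erythrocytes and less RNA per erythrocyte cannot be told apart either.

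Erythrocytes of fish keep their nucleus and carry RNA while they circulate, so that blood within a tissue adds erythroid transcripts to its RNA. Hemoglobin needs heme, and the erythroid 5-aminolevulinate synthase carries out the first and rate-limiting step of heme synthesis in the mitochondria of developing red cells. Iron for heme enters through transferrin receptor 1, which takes up transferrin-bound iron and which other dividing cells also use. The 55 kDa erythrocyte membrane protein is a scaffold that ties glycophorin to the skeleton under the human red cell membrane, and it is made in many other cell types as well.

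Slides, 11 in number, were scanned on 2 days, with 11 NR and 6 RR males on day 1 and 5 NR and 15 RR males on day 2. The median intensity of an array lay between 229 and 470 in NR and between 237 and 860 in RR males, and it averaged 255 and 263 on day 1 but 399 and 411 on day 2. The 3 members and the hemoglobin subunit beta probe (CUST_517_PI417904088) were well above background on all 37 arrays, with no outlier spot. Of the cell type markers looked for, the study's descriptions named hemoglobin subunits for erythrocytes and 2 probes of 3 beta-hydroxysteroid dehydrogenase, a steroid-producing enzyme of Leydig cells. No named probe was found for germ cell, Sertoli cell, leukocyte or thrombocyte markers. The Leydig cell enzyme read 9.29 and 11.85 in NR and 8.63 and 11.27 in RR males (mean log2 signal of each probe). With no other tissue measured for comparison, these values do not check the labelled tissue.

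The signal of erythroid-specific 5-aminolevulinate synthase was lower in most RR testes. In NR males the log2 signal ranged from 11.70 to 13.22 with a median of 12.61, and in RR males from 9.997 to 13.37 with a median of 11.20. The lowest NR male was above 15 of the 21 RR males, and the NR median was above 18 of them. The groups overlapped, with 4 RR males (2, 3, 5 and 13) inside the NR range and RR males 9 and 1 (13.37 and 13.23) just above the highest NR male. Before normalization the probe gave intensities between 2800 and 11600 in NR males and between 804 and 11300 in RR males.

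The mean was 12.53 ± 0.54 (SD, n = 16) in NR and 11.39 ± 0.91 (SD, n = 21) in RR males, a difference of -1.15 on the log2 scale with a standard error of 0.25 and a 95% confidence interval of -1.65 to -0.64. This same contrast had put the probe into the study's list, and no test is attached to it. For comparison, 0.256% of all probes tested passed the thresholds for this contrast (limma, Benjamini-Hochberg adjusted p below 0.01 and fold change above 1.5), 0.167% with a lower and 0.0885% with a higher signal in RR males. The synthase is among them, from which nothing is read, since the contrast chose it. Far fewer calls remained once scan day, or slide as a fixed block, entered the fit. A scan day block left 0 lower and 9 higher in RR males (limma, 4256 probes at an unadjusted p below 0.05). Slide as a fixed block left 1 lower and 8 higher (limma, 4280 probes at an unadjusted p below 0.05). The synthase difference was -1.18 (standard error 0.27) and -1.26 (standard error 0.32) in these fits. Slide as a random block instead left 63 lower and 33 higher (limma, 6184 probes at an unadjusted p below 0.05). The synthase difference was then -1.179 (standard error 0.255). Rations were unevenly spread over the scan days, and the part of batch in the lost calls was not tested.

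The synthase was also compared within each scan day. On day 1 the mean was 12.33 ± 0.52 (SD, n = 11) in NR and 11.65 ± 0.98 (SD, n = 6) in RR males, a difference of -0.67 (standard error 0.34). On day 2 it was 12.98 ± 0.22 (SD, n = 5) in NR and 11.28 ± 0.89 (SD, n = 15) in RR males, a difference of -1.70 (standard error 0.39). The RR mean was below the NR mean on both days, and the 5 NR males of day 2 were all above the NR median. A block for scan day gave a difference of -1.18 (standard error 0.27). Whether the 2 days differed in the effect was not tested.

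Transferrin receptor protein 1 gave a far dimmer spot, with intensities between 104 and 297 in NR and between 72.3 and 469 in RR males. The normalized log2 signal ranged from 6.43 to 8.43 with a median of 7.66 in NR males, and from 4.55 to 8.43 with a median of 7.19 in RR males. The highest values of both rations were equal to 2 decimals, and the NR median was above 16 of the 21 RR males. After quantile normalization a low tail set the RR group apart, with RR males 11, 16, 14 and 15 at 4.55, 5.10, 6.06 and 6.31. All 4 lay below the lowest NR male. The tail was shorter with 75th percentile scaling, where the lowest RR male read 6.15 and the lowest NR male 6.49.

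The mean was 7.62 ± 0.44 (SD, n = 16) in NR and 7.08 ± 0.94 (SD, n = 21) in RR males. The difference of -0.54 (standard error 0.25, 95% confidence interval -1.04 to -0.04) did not pass the test over all probes (limma, Benjamini-Hochberg adjusted p = 0.268, unadjusted p = 0.0352), and 16.4% of all probes tested had an unadjusted p below 0.05. On day 1 the difference was -0.39 (standard error 0.18) and on day 2 it was -0.37 (standard error 0.48), with adjusted p of 0.565 and 0.859 from limma within each day.

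A pair of RR arrays carried much of this average. RR male 11 had an intensity of 72.3 on an array with a median of 402, where 7.68% of the tested probes were dimmer. RR male 16 had an intensity of 288 on the brightest array of the series (median 860), where 12.1% of the tested probes were dimmer. In the other 35 males at least 19.1% of the probes were dimmer than the receptor probe.

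Scaling each array to its 75th percentile, in place of quantile normalization, put RR male 16 at 7.62 and RR male 11 at 6.15, against 5.10 and 4.55 before. Under that scaling the difference was -0.29 (standard error 0.17, limma adjusted p = 0.42), the SD in RR males was 0.59 and the lowest RR male (6.15) lay close to the lowest NR male (6.49). Without these RR males, a choice made after seeing the data, the quantile-normalized difference was -0.30 (standard error 0.17, limma adjusted p = 0.473), and that of the synthase was -1.03 (standard error 0.24). Over all males the receptor signal had an r of -0.411 with the log2 median intensity of the array after ration means were removed, where the synthase had -0.004 and the 55 kDa protein 0.064. With ration means left in, the receptor had an r of -0.478 with that intensity but a Spearman's rho of -0.216. The part of array brightness in the receptor difference was not tested.

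The 55 kDa erythrocyte membrane protein gave similar means in both rations, slightly higher in RR males. Its log2 signal ranged from 10.18 to 11.23 with a median of 10.60 in NR males, and from 10.07 to 12.05 with a median of 10.81 in RR males. The RR values spread to both sides of the NR values, with 3 RR males below all NR males and 4 above all of them (RR males 20, 18, 19 and 21 at 12.05, 11.67, 11.58 and 11.27).

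The mean was 10.66 ± 0.26 (SD, n = 16) in NR and 10.83 ± 0.52 (SD, n = 21) in RR males, a difference of 0.17 (standard error 0.14, 95% confidence interval -0.11 to 0.46) that did not pass the test (limma, Benjamini-Hochberg adjusted p = 0.545). The interval leaves room for a change of up to 0.46 on the log2 scale upward and 0.11 downward. On day 1 the difference was 0.02 (standard error 0.16) and on day 2 it was 0.39 (standard error 0.25), with limma adjusted p of 0.988 and 0.83 within each day. Its sign turned with array weights (-0.01), and the value there was near 0.

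**Figure D1:**
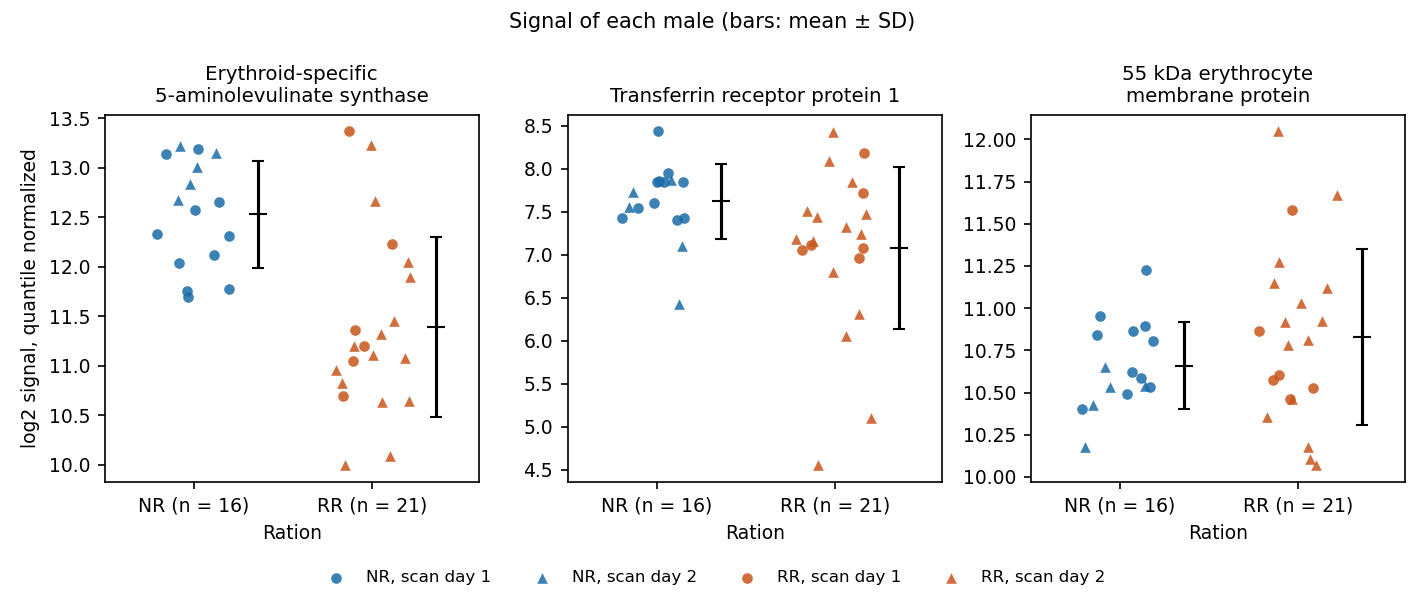
Normalized log2 signal of each male (y axis) for the 3 probes in NR (n = 16, blue) and RR (n = 21, orange) testes, with circles for scan day 1, triangles for scan day 2 and black bars for mean ± SD. The synthase mean lies at 12.53 in NR and 11.39 in RR males. The receptor has a low tail in RR males down to 4.55 (lowest 6.15 with 75th percentile scaling, not drawn). The 55 kDa protein spreads to both sides in RR males.

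The spread between males was wider under restriction for all 3 members. The SD in RR males was 1.68 times that in NR males for the synthase, 2.15 times for the receptor and 2.02 times for the 55 kDa protein, and hemoglobin beta had a ratio of 2.03. With 75th percentile scaling, added after seeing the data, the receptor's ratio was 1.37, that of the synthase 1.69 and that of the 55 kDa protein 2.12, against a median of 1.66 over all probes. This was shared with most of the array, since the median ratio over all probes tested was 1.65 and 91.5% of them had a ratio above 1. The synthase varied more over the 37 males than 94.2% of the probes tested (SD 0.95), the receptor more than 90.0% (SD 0.80) and the 55 kDa protein more than 59.1% (SD 0.43).

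Each member was set against hemoglobin subunit beta, the measure of blood content named in the rule. That probe is a description here as well, since it was also chosen from the ration list, and its mean was 16.02 ± 0.48 (SD, n = 16) in NR against 14.77 ± 0.98 (SD, n = 21) in RR males. Over all 37 males the synthase had a Pearson's r of 0.939 with it, the receptor 0.334 and the 55 kDa protein -0.298. Because the synthase and hemoglobin beta were both picked for their ration difference, these pooled values carry no p, and the relation was tested among males of the same ration, with 6 relations in all and Benjamini-Hochberg adjustment over them.

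The synthase tracked hemoglobin beta within both rations. Among the 16 NR males r was 0.807 (permutation test, two-sided, p = 0.00022, adjusted p = 0.00066) and Spearman's rho was 0.794 (permutation p = 0.00041, adjusted p = 0.00123). Among the 21 RR males r was 0.926 and rho 0.896, both with a permutation p of 1e-05, the smallest that 100000 resamples can give (adjusted p = 6e-05). Leaving out the 2 males farthest from the median hemoglobin signal gave an r of 0.762 in NR and 0.933 in RR males.

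At the low end, RR males 4 and 11 had hemoglobin beta at 12.39 and 13.37 and the synthase at 10.09 and 9.997. At the high end RR males 1 and 9 had hemoglobin beta at 16.79 and 16.56 and the synthase at 13.23 and 13.37. These males held the 2 lowest and the 2 highest synthase values of the RR group.

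The relation was also present within scan days. As deviations from the mean of each day, r was 0.773 in NR males (permutation within days, p = 0.00145, adjusted p = 0.00435) and 0.923 in RR males (p = 1e-05, adjusted p = 6e-05). Taken day by day, r was 0.777 over the 11 NR males of day 1, 0.971 over the 6 RR males of day 1 and 0.918 over the 15 RR males of day 2, given without a test. The 5 NR males of day 2 were too few for a value.

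The slope of the synthase on hemoglobin beta was 0.909 in NR and 0.860 in RR males, both in log2 per log2, and the SD about the line was 0.33 in NR and 0.35 in RR males. With hemoglobin beta as a covariate the ration difference of the synthase was -0.06 (standard error 0.14), against -1.15 without it. With hemoglobin beta and scan day together it was -0.11 (standard error 0.15). The log2 ratio of synthase to hemoglobin beta on the same array was 0.11 higher in RR than in NR males (standard error 0.12). Both probes were chosen for their ration difference, so these values carry no test.

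For the receptor and the 55 kDa protein no relation with hemoglobin beta passed the test, and whether they differ in this from the synthase was not tested. For the receptor r with hemoglobin beta was -0.144 in NR males (permutation test, two-sided, p = 0.601, adjusted p = 0.601, rho -0.138) and 0.221 in RR males (p = 0.329, adjusted p = 0.494, rho 0.188). For the 55 kDa protein r was -0.160 in NR males (permutation p = 0.557, adjusted p = 0.601, rho -0.162) and -0.236 in RR males (p = 0.301, adjusted p = 0.494, rho -0.352). The Spearman values had permutation p of 0.607 and 0.411 for the receptor and of 0.548 and 0.118 for the 55 kDa protein. With the 2 males farthest from the median hemoglobin signal left out, r in RR males was 0.407 for the receptor and -0.503 for the 55 kDa protein (permutation p = 0.0852 and 0.028, adjusted p = 0.128 and 0.0559), and in NR males it was -0.275 and -0.313. Without RR males 11 and 16 the receptor had an r of -0.049 in RR males. Against the mean of the other hemoglobin probes it had 0.197 in NR and 0.450 in RR males (permutation p = 0.461 and 0.0404, adjusted p = 0.553 and 0.0808). The 55 kDa protein had -0.066 and -0.173 there.

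**Figure D2:**
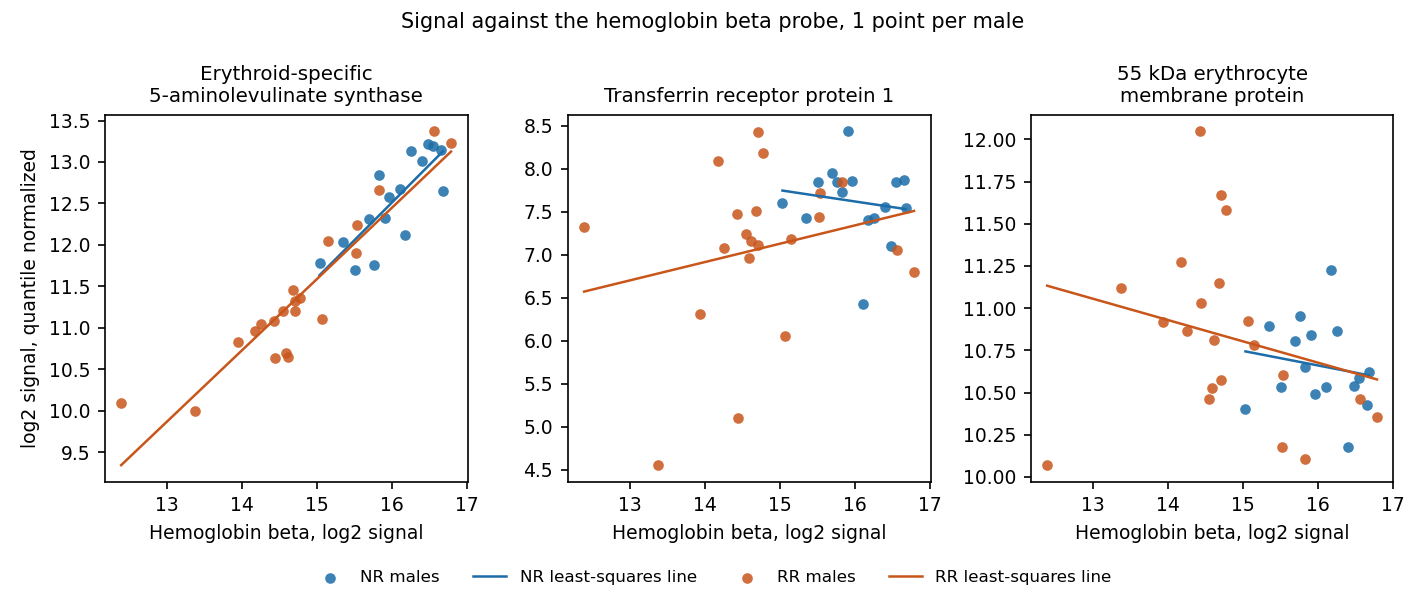
Normalized log2 signal of the 3 probes (y axes) against that of the hemoglobin subunit beta probe (x axes), 1 point per male, with a least-squares line for NR (blue) and RR (orange) males. The synthase points of both rations lie along one band (r = 0.807 in NR and 0.926 in RR males), whereas the receptor and the 55 kDa protein scatter.

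No relation among the 3 members passed the test. Between the synthase and the receptor r was -0.208 in NR and 0.349 in RR males, between the synthase and the 55 kDa protein -0.363 and -0.320, and between the receptor and the 55 kDa protein 0.094 and 0.074. These were 6 relations tested by two-sided permutation (lowest p = 0.118, lowest adjusted p = 0.334), and the Spearman values gave adjusted p of 0.581 or more. Leaving out the 2 males farthest from the median of the first-named probe gave r between -0.382 and 0.544, without a test. The highest was that between the synthase and the receptor in RR males. A p that misses the threshold with 16 and 21 males does not show that the probes are unrelated.

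Adjusting the ration difference for hemoglobin beta moved the other members by less on the log2 scale. The receptor went from -0.54 to -0.34 (standard error 0.25 before and 0.32 after, limma adjusted p = 0.885). The 55 kDa protein went from 0.17 to 0.02 (standard error 0.14 before and 0.18 after, limma adjusted p = 0.99). Hemoglobin beta was chosen for its ration difference and so shares in this contrast. These p therefore show neither a difference nor its absence. A maturation score was also used as a covariate, that is the mean deviation per male over 1138 probes that the study lists as higher in maturing males. With it the differences were -1.14 for the synthase, -0.46 for the receptor and 0.22 for the 55 kDa protein, with limma adjusted p of 0.163 for the receptor and 0.205 for the 55 kDa protein. The list behind the score also supplied the receptor and the 55 kDa protein, so no conclusion is drawn from these p.

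The score itself had an r of 0.581 with the receptor and 0.663 with the 55 kDa protein after ration means were removed, and of 0.076 with the synthase. For the receptor it was 0.132 within NR and 0.649 within RR males, and for the 55 kDa protein 0.561 and 0.680. The receptor and the 55 kDa protein come from the same list as the score, though they were left out of it, so these values describe that choice and carry no test.

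**Figure D3:**
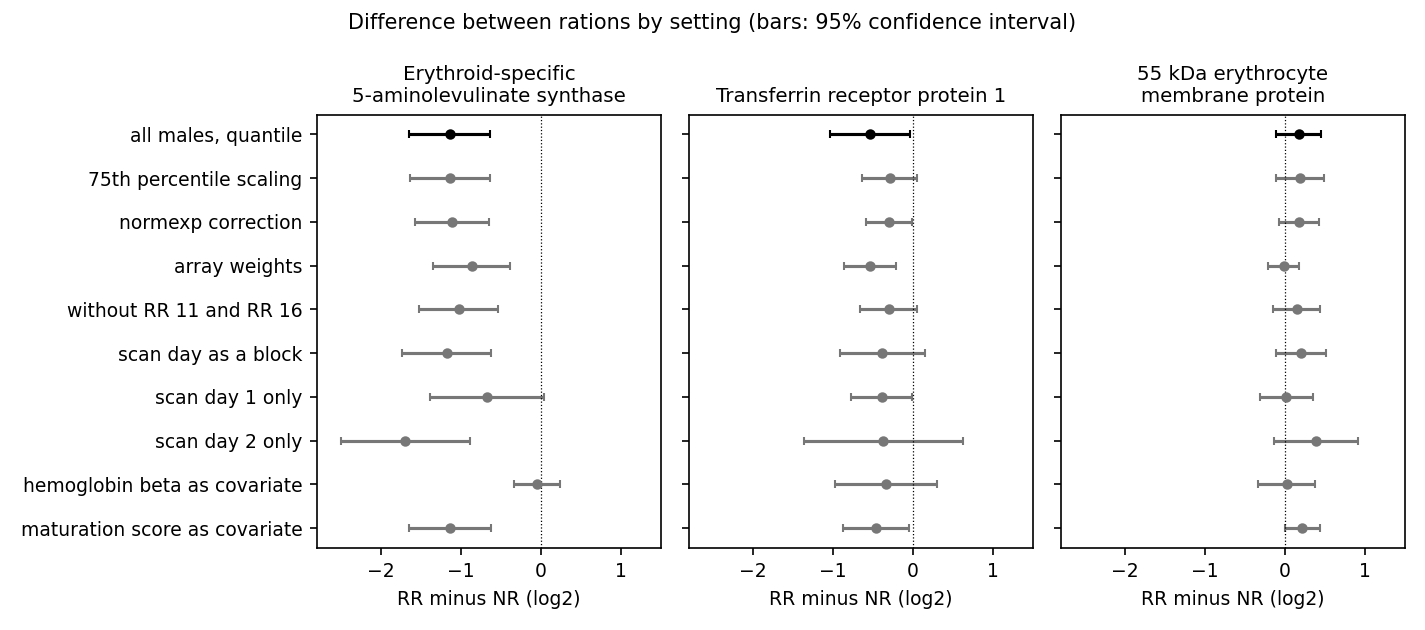
Difference of the RR minus the NR mean on the log2 scale (x axis) with its 95% confidence interval for the 3 probes under 10 settings (y axis), the main one in black. The synthase lies between -1.70 and -0.67 except with hemoglobin beta as a covariate (-0.06), the receptor lies between -0.54 and -0.29, and the 55 kDa protein lies between -0.01 and 0.39.

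To see which transcripts had the pattern of each member beyond the ration difference, ration means were removed and Pearson's r was taken over the 37 males against each of the other 40683 probes, as a description. For the synthase, 4 probes followed it almost exactly, 9_2_11_1 (r = 0.999), 9_3_16_1 (0.993), 9_1_21_19 (0.990) and CUST_11004_PI417904088 (0.989). They have no description in the tables used here. Their mean log2 signals of 11.91, 11.92, 11.90 and 12.06 were close to that of the synthase probe, and the log2 difference between the synthase probe and 9_2_11_1 in a male had an SD of 0.0448.

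Next came CUST_12460_PI417904088 (0.917), CUST_25953_PI417904088 (0.910), hemoglobin subunit beta-1 (0.904), CUST_19711_PI417904088 (0.902), hemoglobin subunit beta (0.902) and CUST_25947_PI417904088 (0.897). Hemoglobin beta had rank 9 of 40683 probes, and hemoglobin alpha-4 (0.880) stood at rank 19. A pair of hemoglobin alpha probes had ranks of 57 (CUST_25951_PI417904088, 0.822) and 59 (CUST_23970_PI417904088, 0.809), and 59 probes in all had an r over 0.8. The last hemoglobin alpha probe, CUST_17703_PI417904088, had an r of -0.050 with the synthase. This probe did not follow hemoglobin beta, the blood measure used here, either (r = -0.05). It is the one of the 6 hemoglobin probes that the study lists for maturation and not for ration, and it read 15.27 ± 0.17 (SD, n = 16) in NR and 15.32 ± 0.29 (SD, n = 21) in RR males.

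The receptor and the 55 kDa protein had other neighbors. For the receptor the highest r was 0.922 (CUST_23223_PI417904088), followed by CUST_1963_PI417904088 (0.913) and CUST_38235_PI417904088 (0.905), and the one described probe among its first 10 was cAMP-regulated D2 protein precursor (0.902). Hemoglobin beta stood at rank 16726 (0.168), and 3 of the 10 were also among the first 10 with 75th percentile scaling. Other hemoglobin probes had a higher r with the receptor, up to 0.523 (CUST_23970_PI417904088) and 0.67 (CUST_17703_PI417904088).

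For the 55 kDa protein the nearest probes were MKI67 FHA domain-interacting nucleolar phosphoprotein-like (0.948), a nucleolar binding partner of a proliferation antigen, and H/ACA ribonucleoprotein complex subunit 4 (0.938), the enzyme that places pseudouridine in ribosomal RNA. MAK16-like protein RBM13 (0.928), whose yeast counterpart acts in making the large ribosomal subunit, was also among its first 10. The rest of those 10 have no description. Only 1974 probes are described, each because the study listed it in some contrast, so the names seen here depend on that choice. Hemoglobin beta stood at rank 26086 (-0.225), whereas the hemoglobin alpha probe CUST_17703_PI417904088 had an r of 0.528. With 75th percentile scaling 6 of the 10 nearest probes were kept for the synthase and 6 for the 55 kDa protein, and hemoglobin beta had rank 7 for the synthase. All points share the array and its brightness, and for the receptor and the 55 kDa protein moderate values are common, since the central 95% of all probes lay between -0.640 and 0.724 and between -0.699 and 0.739, against -0.380 and 0.427 for the synthase.

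**Figure D4:**
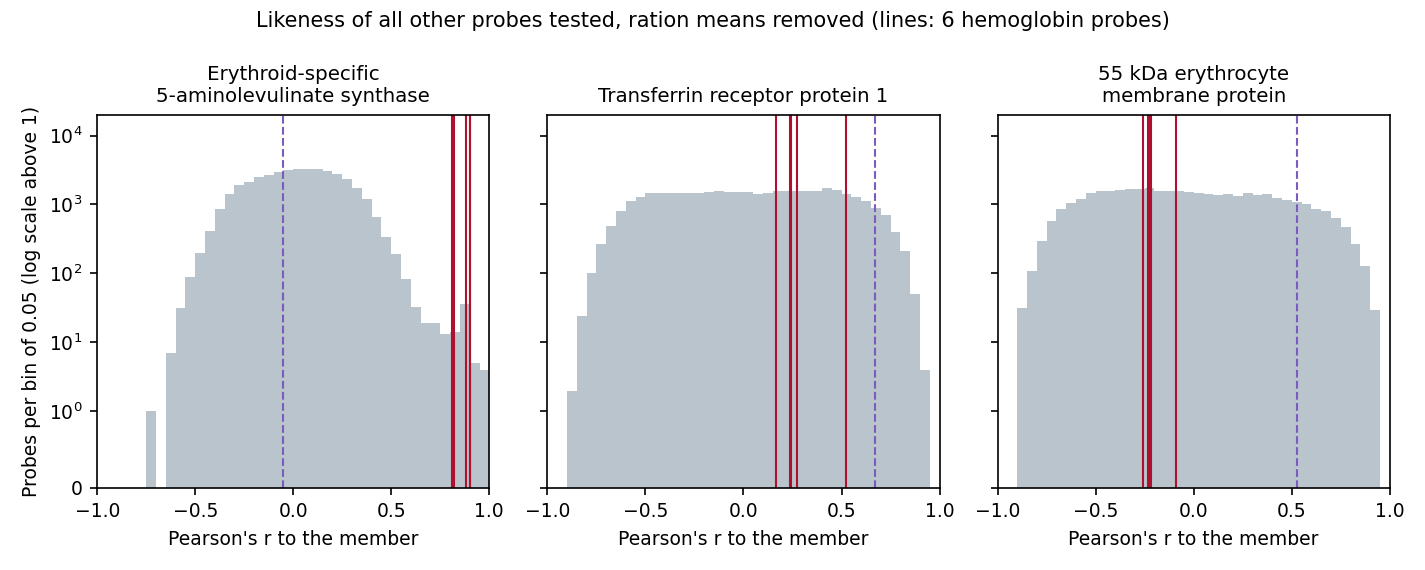
Number of probes (y axis, log scale above 1) by their Pearson's r to each member over 37 males with ration means removed (x axis, bins of 0.05), with the 6 hemoglobin probes as vertical lines and the hemoglobin alpha probe CUST_17703_PI417904088 dashed. For the synthase 5 hemoglobin lines stand at the right edge (0.809 to 0.904). For the 55 kDa protein the same 5 lie below 0 and the dashed line at 0.528. For the receptor all 6 lie above 0, from 0.168 to 0.67 (dashed).

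Other genes of heme and red cell biology were looked up in the same tables. These name few of them, and all were named there because they had been called in some contrast, so the counts are no survey of the pathways. In heme synthesis, uroporphyrinogen decarboxylase, which acts later in the pathway, read 10.27 ± 0.23 (SD, n = 16) in NR and 10.41 ± 0.63 (SD, n = 21) in RR males and did not pass (difference 0.14, limma adjusted p = 0.691). The study lists this probe for maturation and also for ration among maturing males, part of the males used here. Its values over all males are therefore a description, and the maturing males were not looked at apart. After ration means were removed it had an r of -0.019 with the synthase. Of the 2 probes of heme synthesis, 1 passed, the synthase itself, where 0.256% of all probes did, and nothing is read from it because the contrast chose that probe.

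In iron handling, 0 of 2 probes passed, against 0.256% of all probes, and limma gave both an unadjusted p below 0.05, as it did 16.4% of all probes. Ovotransferrin precursor, a transferrin of the blood plasma that carries iron to the receptor, read 12.52 ± 0.44 (SD, n = 16) in NR and 12.95 ± 0.63 (SD, n = 21) in RR males (difference 0.43, limma adjusted p = 0.226, unadjusted p = 0.0225). The study lists ovotransferrin for ration among immature males, part of the males used here. Its p and its direction, opposite to that of the receptor, describe that choice and carry no test. Its r with the synthase was 0.008.

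The list of red cell enzymes matched 2 probes, of which 0 passed in limma (0.256% of all probes did) and 1 had an unadjusted p below 0.05. Peroxiredoxin-2, an abundant antioxidant of red cells, read 10.70 ± 0.32 (SD, n = 16) in NR and 10.52 ± 0.67 (SD, n = 21) in RR males (difference -0.18, limma adjusted p = 0.634, unadjusted p = 0.325). The carbonic anhydrase-related protein, matched by name only, belongs to a branch of the family without the enzyme activity and is not the red cell enzyme. It read 14.62 ± 0.28 (SD, n = 16) in NR and 14.31 ± 0.33 (SD, n = 21) in RR males (difference -0.31, limma adjusted p = 0.121, unadjusted p = 0.00505), and it had an r of 0.451 with the synthase and 0.563 with hemoglobin beta after ration means were removed. No probe was named for the erythroid regulators looked for.

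Of the 6 hemoglobin probes, 4 passed, all 4 lower in RR males, where 0.256% of all probes passed, with a median difference over the 6 of -1.04 against -0.02 over all probes tested. With scan day as a block none of the probes tested was called lower in RR males, the 4 included. The mean of each of the 4 was still lower in RR than in NR males on both days. For hemoglobin beta it was 15.07 against 15.90 on day 1 and 14.65 against 16.30 on day 2. Most of the 6 had been listed for this contrast, so their count is a description, as is the difference of -1.26 (standard error 0.26) for hemoglobin beta. The 2 Leydig cell enzyme probes read -0.67 and -0.58 (limma adjusted p = 0.18 and 0.122, unadjusted p = 0.013 and 0.00533). An unadjusted p below 0.05 was found for 16.4% of all probes. After ration means were removed they had an r of 0.349 and 0.364 with the synthase and of 0.493 and 0.419 with hemoglobin beta. The part of such shifts in the cell make-up of the tissue in the synthase difference was not tested.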

How the data were processed

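Testis RNA of 37 males (16 NR, 21 RR, rations taken from the sample titles because another label field calls every ration normal) was measured on one-color arrays. The authors deposited linear spot intensity from Agilent Feature Extraction 10.7.1.1, with the background-corrected processed signal, the median signal and the background. The deposited table of log2 values was not normalized between arrays. Its 1589471 values equaled log2 of the background-subtracted intensity to within 5e-09, a measure other than the processed intensity. No genome build is given in the sources used here.

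The processed intensity was log2-transformed and quantile normalized, as in the study's methods, with limma 3.58.1 in R 4.3.3. Control spots were left out, 581 outlier spots were set to missing, and the 40684 probes that 16 or more arrays flagged as well above background entered lmFit and eBayes and Benjamini-Hochberg adjustment (call: adjusted p below 0.01, fold above 1.5). Correlations were tested by 100000 two-sided permutations with a threshold of 0.05. The fit of RR against NR males without covariates and the permutation test of Pearson's r were tested on simulated data. Alternatives were other normalizations, background correction, filters, the methods' t-test, array weights, slide and scan day, covariates and each male left out. The array number limits the precision.

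The members, lists and tests were chosen with earlier results of these data known. Named probes are the members, the hemoglobin probes, pathway lists and the 10 probes most like each member, with the study's descriptions. The gene table used here held 0 of the array's 112 RefSeq accessions, and sequences are not shown. Sampling dates and maturational status were not analysed here.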

Additional observations from a re-analysis of the deposited data

How the results depend on the processing

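The number of probes called between rations was 104 and moved by over 1.5 times in 12 of 20 alternatives. Among these are looser thresholds on the same fit, which can only raise the number. With slide as a random block it was 96 (33 higher, 63 lower). It was 9 with slide as a fixed block (8 higher, 1 lower), 9 with scan day as a block (9 higher, 0 lower, against 36 and 68 without it), 0 within scan day 1 and 0 within scan day 2 (limma, 3517 and 2231 probes at an unadjusted p below 0.05, and 104 over both days), 172 with array weights, 14 with hemoglobin beta and 8 with hemoglobin beta and scan day as covariates, 187 with the maturation score, 206 at an adjusted p below 0.05, 190 with no threshold on the fold and 49 without RR males 11 and 16. With each male left out in turn it ranged from 56 (without NR male 2) to 129 (without RR male 1), and in 12 of these 37 fits it moved by over 1.5 times (NR males 1, 2, 3, 8, 12, 13, 14, 15 and 16 and RR males 3, 11 and 12).

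The synthase difference moved to -0.055 with hemoglobin beta and to -0.105 with hemoglobin beta and scan day as covariates, and was -0.87 or further from 0 in the other fits over males of both days. With each male left out in turn it ranged from -1.244 to -1.075, the receptor from -0.618 to -0.413 and the 55 kDa protein from 0.114 to 0.212. The receptor was called under no alternative (limma adjusted p between 0.0395, with array weights, and 1). The 55 kDa protein turned to -0.012 with array weights. The median over all probes lay at 0.067 with 75th percentile scaling against -0.018.

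Both rations carry replicate numbers 1 to 16, and 6 of the 16 same-numbered pairs deviated together (correlation over 0.1, median 0.0644). The labels do not say what the number stands for, and the males were treated as unpaired. With the replicate number as a block 290 probes were called against 104 without it. RR males 17 to 21 share their number with no NR male, so that this fit compared males 1 to 16 of each ration only. In limma 11106 against 6653 probes had an unadjusted p below 0.05. The 55 kDa protein then read -0.048, the synthase -1.098 and the receptor -0.808 (limma adjusted p = 0.0554). These differences are those of males 1 to 16 and depart from the main ones through the RR males left out. Those RR males lay between 11.15 and 12.05 for the 55 kDa protein and between 7.48 and 8.43 for the receptor. What the number shares between males was not tested.

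Correlations of the synthase with hemoglobin beta stayed past the threshold in all 8 alternatives (0.617 to 0.810 in NR and 0.896 to 0.944 in RR males). Leaving out RR males 11 and 16 is among the 8 and could not change r in NR males. Signs without a call turned for the receptor in NR males (0.010 with 75th percentile scaling, 0.218 with the deposited values, 0.038 within days, 0.197 against the other hemoglobin probes) and in RR males (-0.049 without RR males 11 and 16), and for the 55 kDa protein in NR males (0.037 with 75th percentile scaling, 0.268 with the deposited values, 0.058 within days) and in RR males (0.137 with the deposited values). The cause was not tested.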
